A study of Mus musculus with 37 samples.

Results

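The polyamine genes described here are 9 genes that make, break down or control putrescine, spermidine and spermine: Amd1, Odc1, Srm, Sms, Sat1, Azin1, Oaz1, Oaz2 and Smox. They were picked by symbol and matched through their Ensembl identifiers in both hemispheres' tables, where all 9 were found among 21975 genes. The set was chosen with the differences of Amd1 and Odc1 between sham, PTE- and PTE+ libraries already known. Every difference between those groups below is therefore a description and no test, also where a gene is said to meet a threshold. The tables held RNA of astrocytes that were isolated from the cortex of wild-type mice 4 months after surgery. The labels write the strain as WT CD31 and the study's methods describe male CD1 mice. Injured mice had controlled cortical impact (CCI), a mechanical blow to the exposed cortex of one side, and were sorted by EEG into those that developed post-traumatic epilepsy (PTE+) and those that did not (PTE-). Sham mice had the skull opened and the recording electrodes placed, with no impact, so these interventions were shared by all 3 groups. The ipsilateral side, injured only in CCI mice, gave 5 sham, 10 PTE- and 4 PTE+ libraries and the contralateral side gave 5, 9 and 4. These came from 20 mice, of which 17 (5 sham, 9 PTE- and 3 PTE+) had a library from each side, so the hemispheres are not independent samples. Each library was from 1 mouse as its name gives it, and cells were enriched on MicroBeads that bind ACSA-2, an antigen on the surface of astrocytes.

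Polyamines are small positively charged molecules that bind nucleic acids, support translation and growth, and in the brain also act on ion channels and glutamate receptors. Ornithine decarboxylase (Odc1) makes putrescine from ornithine, and S-adenosylmethionine decarboxylase (Amd1) supplies the aminopropyl groups that spermidine synthase (Srm) and spermine synthase (Sms) add to it. Antizymes (Oaz1, Oaz2) bind ornithine decarboxylase and send it to degradation, the antizyme inhibitor (Azin1) releases it, and Sat1 and Smox, an acetyltransferase and an oxidase, lead spermine and spermidine back towards putrescine. In the brain, astrocytes are known as a main store of spermidine and spermine.

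Amd1 and Odc1 encode the regulated decarboxylases of the pathway, and the results turn on them. Amd1 (ENSMUSG00000075232) is a protein-coding gene on the minus strand of chromosome 10 from 40287458 to 40302186, and Odc1 (ENSMUSG00000011179) lies on the plus strand of chromosome 12 from 17544794 to 17551505 (GRCm38, GENCODE). The sequences before their starts are shown because these genes differed between groups in different comparisons. They are from RefSeq on GRCm38.p6, 250 bases for Amd1 (chr10:40302189-40302438, minus strand) and 171 bases for Odc1 (chr12:17544623-17544793, plus strand), 5′ to 3′, with each match to a searched motif in capitals.
Amd1: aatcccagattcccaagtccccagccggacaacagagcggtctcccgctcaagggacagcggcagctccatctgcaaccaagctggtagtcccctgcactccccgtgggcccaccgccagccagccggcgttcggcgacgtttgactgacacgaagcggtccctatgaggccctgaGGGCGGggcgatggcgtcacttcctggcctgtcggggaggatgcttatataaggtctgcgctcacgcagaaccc
Odc1: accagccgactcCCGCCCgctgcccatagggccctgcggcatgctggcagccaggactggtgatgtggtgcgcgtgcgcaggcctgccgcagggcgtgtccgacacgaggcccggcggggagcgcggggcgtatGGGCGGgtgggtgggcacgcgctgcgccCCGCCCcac
The motifs searched on both strands were the E-box (CACGTG), the CRE (TGACGTCA), the TATA box (TATAAA), the GC box (GGGCGG) and the CCAAT box, of which none overlapped another here. The capitals mark 1 GC box in the Amd1 window and 3 in the Odc1 window, and no other motif of these exact letters was in either. Variants of the motifs were not searched, so the tatataag near the end of the Amd1 window was not counted. The search therefore does not show that either gene lacks a TATA box. In 32851 RefSeq windows of 300 bases, which reach 50 bases past the start, 35.7% held a GC box, 7.15% an E-box, 1.79% a CRE, 13.6% a TATA box and 37.4% a CCAAT, so a GC box is common and sets neither gene apart. Such windows were found for 7 of the 9 genes. GC content was 64.4% in the Amd1 window and 77.2% in the Odc1 window, which differ in length. The Odc1 window shown was cut at the GENCODE start of the gene, and its RefSeq window reaches on to 17544922. Over the full 300 bases Odc1 had 4 GC boxes and Amd1 had 1.

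The values are TPM, transcript abundances scaled to transcript length and to the library's total, so that levels of different genes in one library can be compared. Depth is unknown from such values and no counting interval can be given. The level order was the same in both hemispheres: Oaz1, Sat1, Smox, Oaz2, Srm, Odc1, Amd1, Azin1 and Sms. Mean ipsilateral levels over 19 libraries ran from 1381 TPM for Oaz1 and 692 for Sat1, through 344 for Smox, 282 for Oaz2 and 147 for Srm, to 65.1 for Odc1, 57.6 for Amd1, 36.4 for Azin1 and 8.05 for Sms. The antizyme transcript was thus at a far higher level than the decarboxylase it controls. Neighbours in this order did not always separate. Odc1 was above Amd1 in only 10 of 19 ipsilateral and 10 of 18 contralateral libraries, and Smox was above Oaz2 in 16 of 19 and 14 of 18. Oaz1 was above Sat1, Oaz2 above Srm, Srm above Odc1 and Azin1 above Sms in all 37 libraries. Oaz2 was the steadiest gene in ipsilateral PTE+ libraries, with a coefficient of variation of 2.21%, and Sms varied most, with 48.2% in ipsilateral PTE- libraries (31.6% without mouse 9_14, described below) and 41.5% in contralateral sham libraries.

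**Figure D1:**
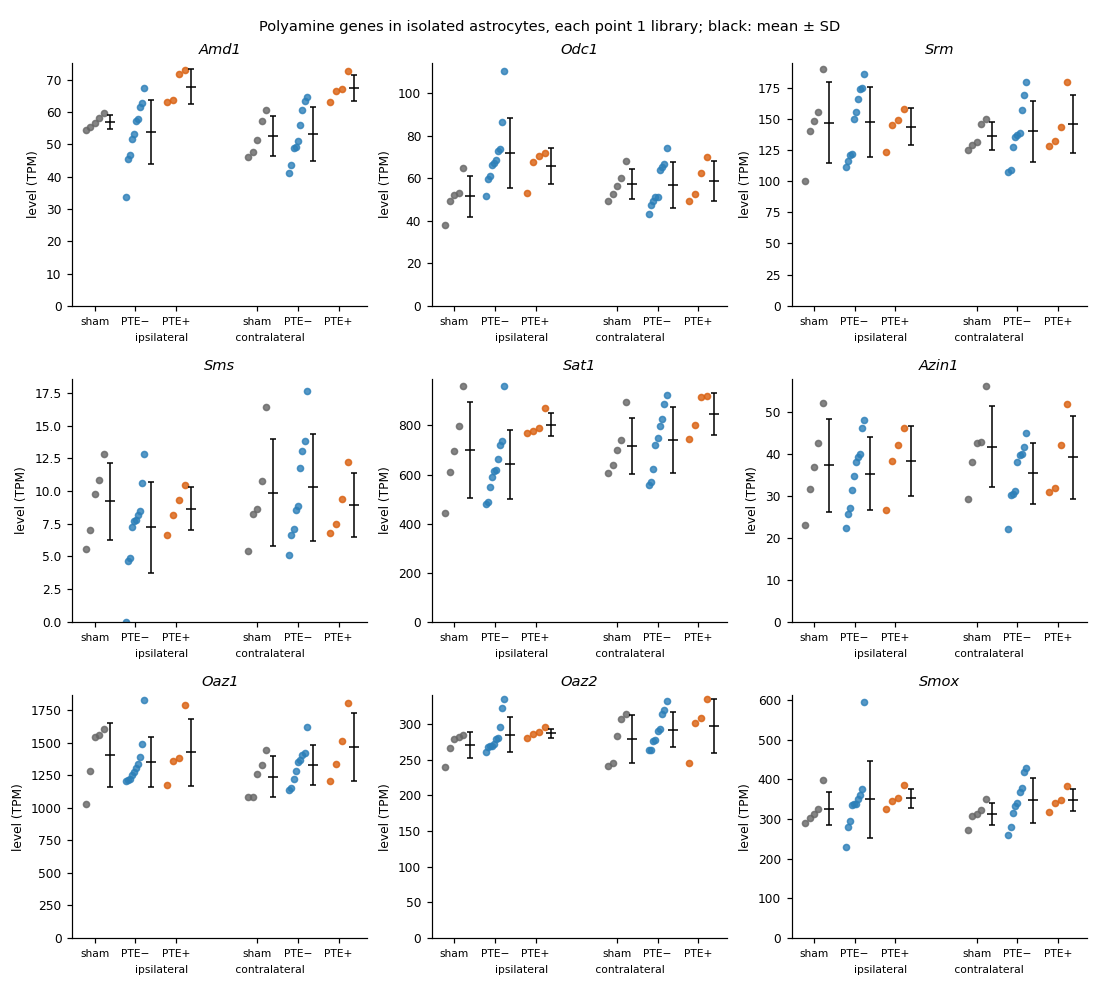
Level in TPM (vertical axes, from 0) of the 9 polyamine genes in sham (grey), PTE- (blue) and PTE+ (orange) libraries of each hemisphere. Each point is 1 library and the black bars are the mean ± SD. The PTE+ points of Amd1 lie above all sham points in both hemispheres, and 1 ipsilateral PTE- library has Sms at 0.02 TPM.

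The astrocyte list of 10 markers (Slc1a3, Slc1a2, Aldh1l1, Aqp4, Gfap, Gja1, Atp1b2, Sox9, Aldoc and S100b) summed to between 14209 and 20577 TPM over the libraries, far above the lists of other cell types. Markers of other cells were present: 8 oligodendrocyte genes summed to between 519 and 4451 TPM, 5 endothelial genes to between 258 and 1930, 8 microglial genes to between 113 and 522 and 4 neuronal genes to between 18.8 and 375, and no listed marker was at 0 throughout a group. The library of ipsilateral PTE- mouse 9_14 stood apart, with 10727 genes above 0 TPM against at least 15599 in each of the other 36 libraries. Some ipsilateral PTE- values that it moves are also given without it. In these samples fewer cells of a type and less RNA per cell cannot be told apart.

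Amd1, the enzyme that commits S-adenosylmethionine to spermidine and spermine synthesis, had its highest levels in PTE+ mice on both sides. In the ipsilateral cortex it measured 59.58, 56.74, 54.32, 55.51 and 58.2 TPM in the sham mice and 63.03, 63.58, 71.88 and 73.03 TPM in the PTE+ mice. The 10 PTE- libraries ran from 33.83 TPM, in mouse 9_14, over a median of 55.3 to 67.39 TPM. All 4 PTE+ libraries lay above all 5 sham libraries, and 2 of them above all PTE- libraries. In the contralateral cortex the sham values were 47.78, 51.42, 57.24, 46.15 and 60.49 TPM and the PTE+ values 63.03, 67.26, 72.66 and 66.62 TPM, while 9 PTE- libraries ran from 41.06 over a median of 50.88 to 64.57 TPM. Again every PTE+ library was above every sham library, and 3 of 4 were above every PTE- library. The share of all tested genes with every PTE+ library above every sham library was 0.584% ipsilaterally (61 of 10447) and 0.254% contralaterally (27 of 10640). Amd1 was the only one of the 9 genes in either count, and since this contrast chose the set, nothing is read from that. Both libraries of mouse 8_10 had the same Amd1 value, and 14 of 9499 genes above 5 TPM had equal values in them, so they are separate libraries.

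Averaged over the libraries of each mouse, Amd1 was 68.1 ± 3.60 TPM in PTE+ mice (SD, n = 5), 52.3 ± 8.69 in PTE- mice (n = 10) and 54.6 ± 3.22 in sham mice (n = 5). The PTE- mice include 9_14, at 33.83 TPM from its 1 library, which lowers their mean and widens their SD. All 5 PTE+ mice were above the highest sham mouse, at 59.3 TPM. The share of all genes that separate in this way on mouse means was not computed, and nothing is read from the count. Of these mice, 8_17 and 9_19 had a library from 1 side only. On the log2(TPM + 1) scale, which slightly understates changes of low genes, the PTE+ minus PTE- difference was 0.35 in each hemisphere, with a standard error (SE) of 0.16 and a 95% interval of 0.02 to 0.68 ipsilaterally, and an SE of 0.13 and an interval of 0.08 to 0.63 contralaterally. Against sham it was 0.25 (−0.02 to 0.51) ipsilaterally and 0.36 (0.07 to 0.65) contralaterally. The PTE- minus sham difference of Amd1 was −0.10 (−0.41 to 0.20) on the ipsilateral side, −0.03 without mouse 9_14, and 0.01 (−0.26 to 0.27) on the other. The ipsilateral PTE+ minus PTE- median over all genes was itself 0.12. After each library was centred on its own median, the ipsilateral Amd1 value was 0.27. That centring gave 0.29 contralaterally.

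The study's rule for a differentially expressed gene, an unadjusted p under 0.05 with a fold of at least 1.2 in genes above 5 TPM in a group, was applied here with limma to all genes. Amd1 met it in 3 of the 6 group comparisons: PTE+ against PTE- on each side and contralateral PTE+ against sham. In the ipsilateral PTE+ against PTE- comparison 2 of the 9 genes met it, Amd1 and Sat1, where 0.573% of 10473 tested genes did. In the contralateral one 1 of 9 did, Amd1, where 2.79% of 10423 did, and 1 of 9, Amd1, met it in contralateral PTE+ against sham, where 1.97% of 10640 did. The set was chosen with these contrasts known, so nothing is read from which of the 9 genes met the rule, here or below. No gene passed an adjusted p under 0.05 in any of the 6 comparisons in limma with Benjamini-Hochberg adjustment, where between 63 and 414 genes had an unadjusted p under 0.05. Each of these counts was a smaller share of the tested genes than 0.05, the share expected by chance at that threshold. The ipsilateral Amd1 call was lost without any one of the 4 PTE+ mice (0.31 to 0.38), and it held at 0.28 without the library of mouse 9_14. Median centring ended the PTE+ against PTE- call of Amd1 on both sides, and quantile normalization (0.31) ended the ipsilateral one. The contralateral call against sham was lost without PTE+ mouse 9_17, at 0.32.

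Amd1 has a near-identical copy, Amd2, and the split between them is uncertain. Of the 3105 stretches of 100 bases in the longest Amd1 transcript of 3204 bases, 73.2% also occurred in an Amd2 transcript. The authors' estimation gave Amd2 a mean of only 1.11 TPM in each hemisphere, with at most 3.14 TPM in any library. How much of the Amd1 level came from reads that fit both genes was not tested.

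Odc1, which catalyses the entry step to putrescine, was higher in injured than sham mice on the ipsilateral side, and the values of PTE- and PTE+ mice overlapped. In ipsilateral sham libraries it measured 52.83, 37.89, 64.93, 51.96 and 49.4 TPM. In the 10 PTE- libraries it ran from 51.72 over a median of 67.8 to 110.45 TPM, the last in mouse 9_14, and in the PTE+ libraries it was 71.68, 53.24, 67.7 and 70.55 TPM. Of the PTE- libraries 7 lay above every sham library, as did 3 of the 4 PTE+ libraries, and the groups overlapped. The PTE- minus sham difference was 0.46 (SE 0.16, 95% interval 0.12 to 0.81), the PTE+ minus sham difference 0.36 (−0.01 to 0.73), and the PTE+ minus PTE- difference −0.10 (−0.46 to 0.25), which was −0.03 without mouse 9_14. Odc1 was the 1 gene of the 9 that met the rule in ipsilateral PTE- against sham, where 1.54% of 10485 tested genes did. None of the 9 met it in PTE+ against sham on that side, where 1.56% of 10447 did. Without mouse 9_14 the PTE- value was 0.39 and still met the rule, and with libraries weighted by their quality it was 0.26 and did not.

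In the contralateral cortex Odc1 did not separate the groups. The sham values were 49.21, 56.37, 67.91, 60.07 and 52.65 TPM, the PTE+ values 52.76, 49.15, 69.96 and 62.23 TPM, and the 9 PTE- libraries ran from 43.26 over a median of 51.2 to 74.33 TPM. The differences against sham were −0.02 (−0.31 to 0.27) for PTE- and 0.03 (−0.31 to 0.36) for PTE+. These intervals still allow differences near 0.3 in either direction. None of the 9 genes met the rule in contralateral PTE- against sham, where 3.76% of 10564 tested genes did.

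Mouse names began with 8 or 9, which may mark cohorts, although what the prefix stands for is not given in the sources used here. Amd1 was higher in PTE+ than in PTE- libraries within each prefix on each side, by 0.21 and 0.41 ipsilaterally and by 0.17 and 0.51 contralaterally for prefixes 8 and 9. Only 1 ipsilateral PTE+ mouse had the prefix 8, so the first value rests on that mouse. Odc1 was higher in ipsilateral PTE- than sham libraries by 0.58 within prefix 8 and by 0.39 within prefix 9.

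The spermidine and spermine synthases, which use the product of Amd1, did not meet the rule in any comparison. Srm measured 147 ± 32.4 TPM in ipsilateral sham (SD, n = 5), 148 ± 27.9 in PTE- (n = 10) and 144 ± 14.8 in PTE+ libraries (n = 4), and its differences on both sides lay between −0.02 and 0.09, with intervals within −0.39 to 0.38. Sms was at 9.20 ± 2.92, 7.23 ± 3.49 and 8.65 ± 1.63 TPM in the same groups, and at 8.03 ± 2.54 TPM in PTE- without mouse 9_14 (n = 9). The spread of Sms was wide: contralateral sham values alone ran from 5.45 to 16.4 TPM. In mouse 9_14 Sms was at 0.02 TPM, and without that library the ipsilateral PTE- minus sham value went from −0.49 to −0.18 and the PTE+ minus PTE- value from 0.44 to 0.13. The groups overlapped for both genes on both sides.

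Sat1, which acetylates spermidine and spermine for export or breakdown, was the other gene that met the rule in ipsilateral PTE+ against PTE-. Ipsilateral PTE+ libraries measured 779, 873, 788 and 770 TPM, a narrow range, while PTE- libraries ran from 481 over a median of 616 to 963 TPM and sham libraries measured 798, 609, 695, 444 and 960 TPM. All 4 PTE+ values were above the medians of both other groups, and all lay within the sham range. The PTE+ minus PTE- difference was 0.35 (SE 0.15, 95% interval 0.03 to 0.66) and the contralateral one 0.21 (−0.09 to 0.52). The ipsilateral call was lost without mouse 8_10, 9_17 or 9_18 (0.31 to 0.36), after median centring (0.27) and in a fit of all 3 groups (0.35), and it held at 0.30 without PTE- mouse 9_14. Smox, which oxidises spermine to spermidine, was at 326 ± 42.1, 349 ± 96.4 and 352 ± 24.6 TPM in ipsilateral sham, PTE- and PTE+ libraries. Its highest value, 594 TPM, was in mouse 9_14, and without that library the PTE- level was 322 ± 46.2 TPM (n = 9). Its differences on both sides were between 0.02 and 0.15 with intervals that included 0, and without that library the ipsilateral values were −0.02 for PTE- minus sham and 0.14 for PTE+ minus PTE-.

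For the antizymes and the antizyme inhibitor the intervals of all group differences included 0. Oaz1 averaged 1403 ± 244, 1351 ± 188 and 1426 ± 259 TPM in ipsilateral sham, PTE- and PTE+ libraries, and 1239 ± 159, 1329 ± 152 and 1464 ± 260 TPM contralaterally. Its largest difference was contralateral PTE+ minus sham, 0.23 (−0.11 to 0.58). Oaz2 differences were between 0.02 and 0.10 in the 6 comparisons, with no interval reaching beyond −0.21 or 0.40. Azin1 averaged 37.3 ± 11.1, 35.3 ± 8.64 and 38.3 ± 8.43 TPM ipsilaterally, and its largest difference was contralateral PTE- minus sham, −0.23 (−0.60 to 0.13). The PTE+ comparisons share their PTE+ libraries and the sham comparisons their sham libraries, so the values are given side by side only. Over the 9 genes the median difference of ipsilateral PTE+ minus PTE- was 0.07 beside 0.12 for all genes tested, and contralaterally 0.07 beside 0.05.

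The comparison of hemispheres within a mouse was not itself the contrast that chose the genes, and it was tested. It reuses the libraries of the group comparisons known at the choice. The Odc1 values of ipsilateral PTE- libraries were part of that knowledge, so a test on them is not independent of the choice. None of the 9 genes passed an adjusted p under 0.05 in limma in sham (0.0% of all 10869 tested genes did), PTE- (0.129%), PTE+ (0.0%) or all 17 paired mice together (0.0092%). At an unadjusted p under 0.05 there was 1 of the 9 genes in 1 group, PTE- mice. In that group 991 of all 10869 tested genes were under it as well, so nothing is read from the count. The gene was Odc1. Its ipsilateral minus contralateral difference was 0.25 (SE 0.10, 95% interval 0.05 to 0.45, limma p = 0.017, adjusted p = 0.441), and it was higher on the injured side in 8 of 9 PTE- mice. In sham mice the Odc1 difference was −0.16 (−0.43 to 0.11), with 1 of 5 mice higher on the ipsilateral side, and in PTE+ mice 0.06 (−0.29 to 0.40), with 2 of 3 higher. Whether these groups differ from each other was not tested. Over all 17 mice an exact two-sided sign-flip permutation test gave p = 0.257 for Odc1, with a mean difference of 0.09 ± 0.34 (SD). For Amd1 it gave p = 0.211 with a mean difference of 0.07 ± 0.22, a mean smaller than the SD of the within-mouse differences. That p sets no limit on the size of a side difference. The smallest such p among the 9 genes was 0.0749, for Oaz2, which was lower on the ipsilateral side in 13 of 17 mice, with a mean difference over all 17 of −0.07 ± 0.14.

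**Figure D2:**
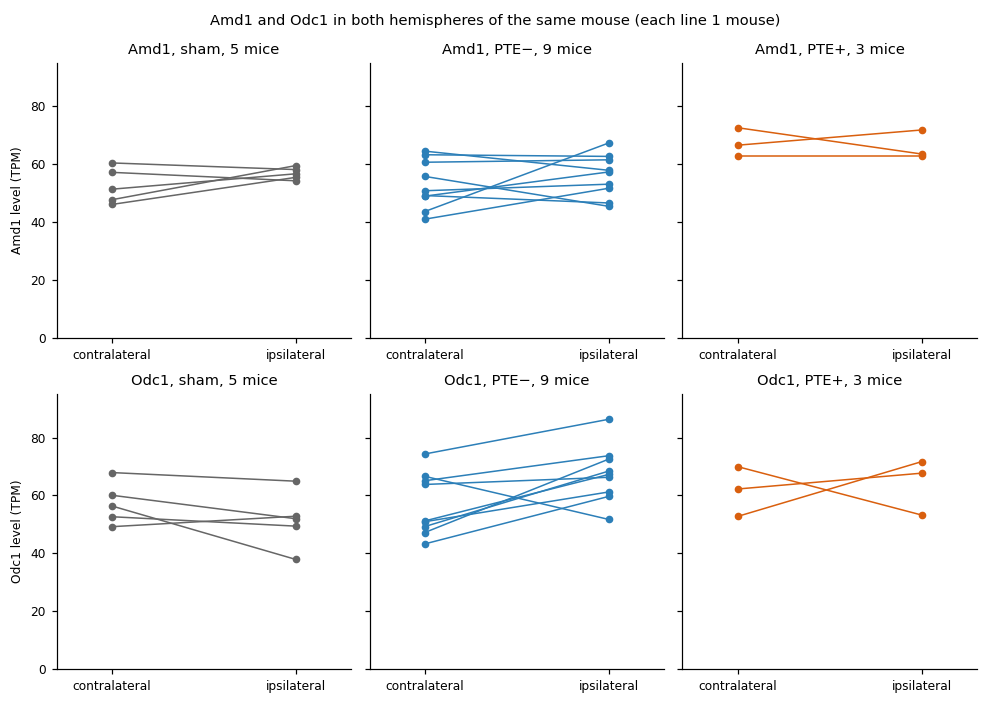
Amd1 (top) and Odc1 (bottom) levels in TPM, vertical axes from 0, in the contralateral and ipsilateral cortex of 5 sham, 9 PTE- and 3 PTE+ mice. Each line joins both libraries of 1 mouse. Odc1 is higher on the injured side in 8 of 9 PTE- mice, and Amd1 lines have no common direction.

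Amd1 and Odc1 were also compared mouse by mouse after the group mean was subtracted. In the ipsilateral libraries they varied inversely, with Pearson's r = −0.61 (n = 19, permutation within groups p = 0.0154, adjusted p = 0.0308 over both hemispheres) and Spearman's rho = −0.36 (permutation p = 0.142, adjusted p = 0.284). Without PTE- mice 8_13 and 9_14, the libraries farthest from the Amd1 median, r was −0.22, and without 9_14 alone it was −0.28, so the relation rests largely on that library. Within prefixes 8 and 9 r was −0.08 (n = 7) and −0.69 (n = 12), the latter group including 9_14. In the contralateral libraries r was −0.19 (n = 18, permutation p = 0.512, adjusted p = 0.512) and rho −0.09 (permutation p = 0.727), r without the 2 farthest libraries was −0.31, and within prefixes 8 and 9 it was −0.19 (n = 8) and −0.29 (n = 10).

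**Figure D3:**
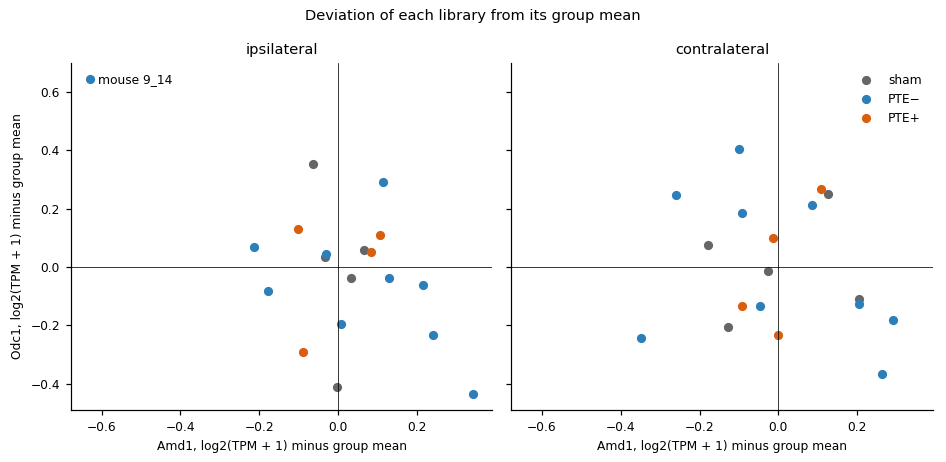
Deviation from the group mean on the log2(TPM + 1) scale for Amd1 (horizontal) and Odc1 (vertical) in 19 ipsilateral and 18 contralateral libraries, coloured by group. The ipsilateral library of PTE- mouse 9_14 lies alone at the upper left. Without it r was −0.28.

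Of 10065 genes above a mean of 5 TPM on both sides, those most like Amd1 over all libraries, by the smaller of the Pearson r values of both hemispheres, were Dcbld1 (0.71), Galnt11 (0.65), Zfp967 (0.64), Zfp13 (0.62) and Nit2 (0.60). Those most like Odc1 were Ulk4 (0.72), Gm11992 (0.70), Arvcf (0.67), Ccdc3 (0.67) and Bbox1 (0.66). None of the 9 polyamine genes was among them. These values describe 19 and 18 libraries that share mice, groups and library quality.

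Of 26 other genes of polyamine metabolism, 18 were above the TPM filter in each comparison. Ipsilaterally 0 met the rule in PTE+ against PTE- (0.573% of all genes did), 1 in PTE- against sham (1.54%) and 2 in PTE+ against sham (1.56%). Contralaterally the counts were 2 (2.79%), 0 (3.76%) and 2 (1.97%). The median differences of the 18 genes were between −0.08 and 0.09. Among the genes that supply ornithine, Oat, ornithine aminotransferase, was the highest at a mean of 436 TPM ipsilaterally and Arg1, an arginase, the lowest at 0.14. Oat was 0.29 (0.00 to 0.57) higher in ipsilateral PTE+ than sham libraries, 1 of the 2 listed genes that met the rule there. In the hypusine group, whose enzymes modify the translation factor Eif5a with spermidine, Eif5a averaged 500 TPM and Eif5a2 2.48 TPM ipsilaterally. Dohh, the hydroxylase that completes hypusine, was 0.43 (0.01 to 0.85) higher in contralateral PTE+ than sham libraries. Among transporters Slc3a2 was highest, at 786 TPM, and Slc22a3 lowest, at 0.33. Atp13a2, a lysosomal polyamine exporter, was 0.44 (0.03 to 0.86) higher in contralateral PTE+ than PTE- libraries. Of the genes that recycle methylthioadenosine and methionine, Mat2a, which makes S-adenosylmethionine, was highest at 297 TPM, and Adi1 was 0.28 lower in contralateral PTE+ than PTE- libraries (−0.28, interval −0.53 to −0.02). Ahcy, S-adenosylhomocysteine hydrolase and the lowest of that group at 6.09 TPM, was 1.76 (0.16 to 3.36) and 1.72 (0.14 to 3.30) higher in ipsilateral PTE- and PTE+ than in sham libraries and 1.81 (0.76 to 2.85) higher in contralateral PTE+ than sham libraries. Azin2 at 25.3 TPM and Paox, the peroxisomal polyamine oxidase, at 12.6 TPM met the rule nowhere. The Paox mean was raised by a highest value of 69.25 TPM, where the ipsilateral median was 9.81 TPM. Oaz3 at 0.44 TPM was the lowest of the synthesis and control genes, and Satl1 was listed at 0 in every ipsilateral library.

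Some other genes also differed between the groups, each list by the rule on 1 side only, and their part in the result was not tested. The summed level of 10 immediate early genes, which respond to activity and to tissue handling, was 227 to 369 TPM in ipsilateral PTE+, 282 to 1369 in PTE- and 348 to 1355 in sham libraries. Of 8 tested, 4 (Fos, Egr1, Junb and Ier2) were lower by the rule in ipsilateral PTE+ against PTE- and 7 against sham. Contralaterally 0 of 9 tested met the rule in PTE+ against PTE- or against sham. The sums there were 245 to 693 TPM in PTE+, 302 to 2450 in PTE- and 309 to 1723 in sham libraries. The 5 endothelial markers summed to 622 to 1930 TPM in contralateral PTE+ libraries against 408 to 1185 in PTE- and 365 to 1623 in sham, and Pecam1 and Tek met the rule as higher in PTE+ against PTE- and Cldn5 in PTE+ against sham. None of the 5 met it ipsilaterally. The 8 oligodendrocyte markers summed to 774 to 2257 TPM in ipsilateral PTE- libraries against 519 to 4451 in sham, with Mog, Mag and Opalin lower by the rule. In ipsilateral PTE+ libraries they summed to 1180 to 2308 TPM, and none met the rule against sham. Gfap, the filament protein of reactive astrocytes, was 1.14 (SE 0.31) higher in ipsilateral PTE- and 1.29 (SE 0.27) higher in ipsilateral PTE+ than in sham libraries.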

How the data were processed

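Astrocytes of both cortical hemispheres were profiled with a SMART-Seq v4 low-input kit. According to the methods and the submitters' processing notes, the authors trimmed reads with Trim Galore 0.6.4, estimated expression with RSEM 1.2.28 and Bowtie2 2.4.1 on mm10, and tested counts with DESeq2 1.36.0. The authors deposited 1 TPM table per hemisphere (21975 genes, library totals of 999999 to 1000001), with no counts, so depth and counting error are unknown. No other per-sample columns were left unused. Symbols matched 21856 identifiers.

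TPM values were analysed as log2(TPM + 1) with a pseudocount of 1, in genes with a mean above 5 TPM in a compared group, with limma 3.58.1 (trend, R 4.3.3) and Benjamini-Hochberg adjustment over all genes tested. A gene met the rule at p under 0.05 and a fold of at least 1.2. The study used counts, which are not analysed here. Hemispheres were compared as within-mouse differences: both libraries of a mouse come from the same animal, and their deviations from group means correlated in 16 of 17 mice at over 0.1 (median r 0.39 over 10869 genes). Single genes were tested by an exact sign-flip permutation test, and the Amd1 to Odc1 relation by 100000 permutations. The limma p-values judge a mean difference against the variation between mice, which for the hemispheres is that of the within-mouse differences. The fit was tested on simulated data.

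The 9 genes and the gene lists were chosen with earlier results of these data known. Named besides the 9 genes were those of the list that met the rule or had the highest or lowest level of their group, and the 5 genes most like Amd1 and Odc1. Alternatives were another pseudocount, other filters, quantile normalization, median centring, a fit of all 3 groups, array weights, no fold threshold, the prefix of the mouse name and leaving out mice. Python 3.11.15 with scipy 1.17.1 was used.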

Additional observations from a re-analysis of the deposited data

Results flagged for a closer look

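In 54 combinations of gene, hemisphere and group, 3 values, in 2 libraries, lay far from the others of their group by Dixon's test on the log2(TPM + 1) scale, where chance flags about 1 in 20 (2.7 of 54). Sms in ipsilateral PTE- mouse 9_14 was 0.02 TPM, where the other 9 libraries of the group had 4.62 to 12.8 TPM. Smox in the same library was 594 TPM (593.93), against 229 to 374 TPM in the others. This is the library with 10727 genes above 0 TPM. Oaz1 in ipsilateral PTE- mouse 8_9 was 1824 TPM (1824.44), against 1204 to 1486 TPM in the others, and its contralateral library, at 1622 TPM, was also the highest of its group.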

How the results depend on the processing

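No called difference of the 9 genes changed sign under any alternative run. For ipsilateral PTE+ against PTE-, 2 genes met the rule, 1 under quantile normalization (Sat1, with Amd1 at 0.31), 1 in the fit of all 3 groups (Amd1) and 0 after median centring, and 0 to 2 with single mice left out. In ipsilateral PTE- against sham the 1 call (Odc1) became 0 under array weights. In ipsilateral PTE+ against sham 0 calls became 1 with no filter (Odc1) and 1 under array weights (Amd1, 0.28), and 0 to 1 with single mice left out. In contralateral PTE+ against PTE- 1 became 0 after median centring. In contralateral PTE+ against sham 1 became 2 under array weights, and 0 to 2 with single mice left out. The ipsilateral Amd1 difference of PTE+ minus sham was 0.16 after median centring and 0.11 within prefix 8, where Odc1 was 0.67, and the contralateral PTE- minus sham value of Amd1 was 0.22 within prefix 8 and -0.15 within prefix 9, so its sign differed between them. The ipsilateral Amd1 to Odc1 r of -0.61 was -0.22 without the 2 farthest libraries and -0.28 without mouse 9_14, an alternative chosen after seeing the data, as were the levels of single genes without that mouse. The causes were not tested, and runs that leave out a mouse also have fewer samples. Over all genes, calls ranged with the setting from 23 to 441 (ipsilateral PTE+ against PTE-, 60 in the report), 144 to 650 (161, PTE- against sham) and 83 to 1221 (163, PTE+ against sham), and contralaterally from 201 to 828 (291), 224 to 861 (397) and 104 to 1114 (210), and the PTE- hemisphere comparison gave 3 to 27 (14). At an adjusted p under 0.05, 1 gene passed in ipsilateral PTE- against sham under array weights and 1 without mouse 9_14, and 1 in ipsilateral PTE+ against PTE- with no filter, none of them among the 9. Of the 397 contralateral PTE- against sham calls 51 were higher, but 216 of 348 under quantile normalization and 328 of 447 after median centring. Without the replicate block, that is without pairing libraries by mouse, the hemisphere difference of Odc1 in PTE- mice was 0.25 with an adjusted p of 1, and 0 of the 9 genes passed in limma, as in the paired fit. TPM keep no depth, so low genes such as Sms cannot be given a counting error.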

Other observations

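Ahcy, which clears the S-adenosylhomocysteine left by methylation, had separate levels between mice. Of the 37 libraries, 17 were between 0.08 and 1.14 TPM, 20 between 4.59 and 24.73 TPM, and none in between. In all 17 mice with a library from each side, both libraries lay on the same side of that gap. Mouse 9_20 had 18.21 TPM ipsilaterally and 18.24 contralaterally, mouse 9_13 had 16.06 and 16.51, and mouse 9_12 had 0.37 and 0.11. Mice above the gap were 1 of 5 sham, 6 of 10 PTE- and 4 of 5 PTE+. Whether the groups differed in that count was not tested.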
